A study of Homo sapiens with 6 samples.

Results

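The ZSCAN, ZKSCAN and ZFP zinc finger genes were taken as the rows of the count table whose gene name is ZSCAN, ZKSCAN or ZFP followed by a number and at most 1 letter, with ZFP36 left out. The rule found 46 of 78932 genes, of which 21 are named ZSCAN, 7 ZKSCAN and 18 ZFP. It uses names only and no measured value. RNA-seq was performed in T24 cells, a line from a human bladder carcinoma, after transfection with a control siRNA (siNC, 3 libraries labelled biological replicates) or with siRNA against TRIM28 (siTRIM28, 3 libraries). The 6 libraries come from 1 cell line and carry 1 batch label, and the labels do not say which TRIM28 siRNA was used.

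Classical C2H2 zinc finger proteins read DNA with tandem fingers, each of which holds a zinc ion between a pair of cysteines and a pair of histidines. In the ZSCAN proteins the fingers follow a SCAN domain, through which these proteins bind each other, and the ZKSCAN proteins carry a KRAB domain as well. The KRAB domain of many zinc finger proteins binds TRIM28 (KAP1), a scaffold that brings SETDB1, HP1 proteins and histone deacetylases to the bound site. The names beginning with ZFP were given to human counterparts of mouse zinc finger genes and do not stand for 1 protein family.

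A sequence pattern of the common KRAB A box was found in the translated coding sequence of 11 of the 46 genes, all of them named ZFP (ZFP1, ZFP14, ZFP28, ZFP30, ZFP37, ZFP57, ZFP69, ZFP69B, ZFP82, ZFP90 and ZFP92). The other 7 ZFP genes (ZFP2, ZFP3, ZFP41, ZFP42, ZFP62, ZFP64 and ZFP91) held no such box, and neither did the ZKSCAN proteins, so the pattern does not reach the KRAB domain from which those are named. The number of C2H2 fingers matched by a fixed spacing was between 1 (ZFP42) and 25 (ZFP62), with a median of 6 in ZSCAN, 7 in ZKSCAN and 10.5 in ZFP. A finger with another spacing is not counted by this pattern.

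The libraries held 11712623 to 14018052 counts. TRIM28 was at 102, 101 and 108 CPM in siNC (counts scaled to a common library size, with TMM factors that correct for differences in composition) and at 9.28, 8.11 and 9.21 CPM in siTRIM28. The mean fell from 104 ± 4.09 to 8.87 ± 0.658 CPM (SD, n = 3 each), which is -3.54 on the log2 scale (SE 0.07, Benjamini-Hochberg adjusted p = 1.03e-10 over 18474 genes, quasi-likelihood test of edgeR). Of the 14 urothelial markers, 6 passed the count filter. KRT8 and KRT18, keratins of simple epithelia, were at 104 and 86.1 CPM in siNC, and PPARG, KRT7, FOXA1 and UPK1A at 7.14, 2.84, 1.63 and 0.874 CPM. Of these 6, KRT8, KRT7 and UPK1A were higher in siTRIM28, by log2 fold changes of 0.14, 0.56 and 1.94. KRT5, KRT20, GATA3, ELF3, KRT19, UPK1B, UPK2 and UPK3A were below the filter, and so were PTPRC, PECAM1, ALB and DES, markers of leukocytes, endothelium, hepatocytes and muscle. Replicates 1 and 2 of siNC differed from each other by little more than counting error (chi-square per degree of freedom of 1.08), as did replicates 2 and 3 of siTRIM28 (1.22), while the other pairs within a group gave 4.17 to 6.25. Whether the libraries of a close pair are independent cultures could not be settled from these data. Counts of calls are therefore also given with each of these close pairs summed into 1 library.

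Of the 46 genes, 32 reached 10 counts in 3 or more libraries and were tested, and 14 were not. After silencing of TRIM28, 3 of the 32 were higher, 9 were lower and 20 did not pass the test at an adjusted p under 0.05. ZFP91, ZSCAN9 and ZSCAN29 rose, and ZFP28, ZSCAN20, ZFP14, ZFP1, ZSCAN25, ZFP41, ZSCAN32, ZFP69B and ZFP62 fell. Among all 18474 genes tested, 41.8% passed in either direction, 21.3% were higher and 20.5% were lower. The corresponding shares of the 32 genes were 37.5%, 9.38% and 28.1%. Their median log2 fold change was -0.17, beside 0.02 for all genes tested, with 11 values above 0 and 21 below. With the close pairs summed, 3 were higher and 5 were lower, since ZFP28, ZSCAN25, ZFP69B and ZFP62 no longer passed, and DESeq2 also called 3 higher and 5 lower. Calls over all genes tested fell as well, from 7723 to 5935 with the pairs summed and to 5878 with DESeq2. Of these 7723, 5935 and 5878 calls, 51.1%, 50% and 49.1% were higher and the rest lower.

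The median absolute log2 fold change was 0.24 in the 32 genes, beside 0.27 over all genes tested. Only ZFP91 and ZFP28 combined an adjusted p under 0.05 with a change of 0.58 or more in either direction on the log2 scale, whereas 17.0% of all genes tested did so. The groups did not overlap, with every siTRIM28 library above every siNC library, in 4 of the 32 genes (ZFP91, ZSCAN9, ZSCAN29 and ZKSCAN8), against 26.3% of all genes tested. In 11 of the 32 every siTRIM28 library was below every siNC library, against 25.7% of all genes tested. These 11 are the 9 genes called lower, ZSCAN22 and ZFP64.

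**Figure D1:**
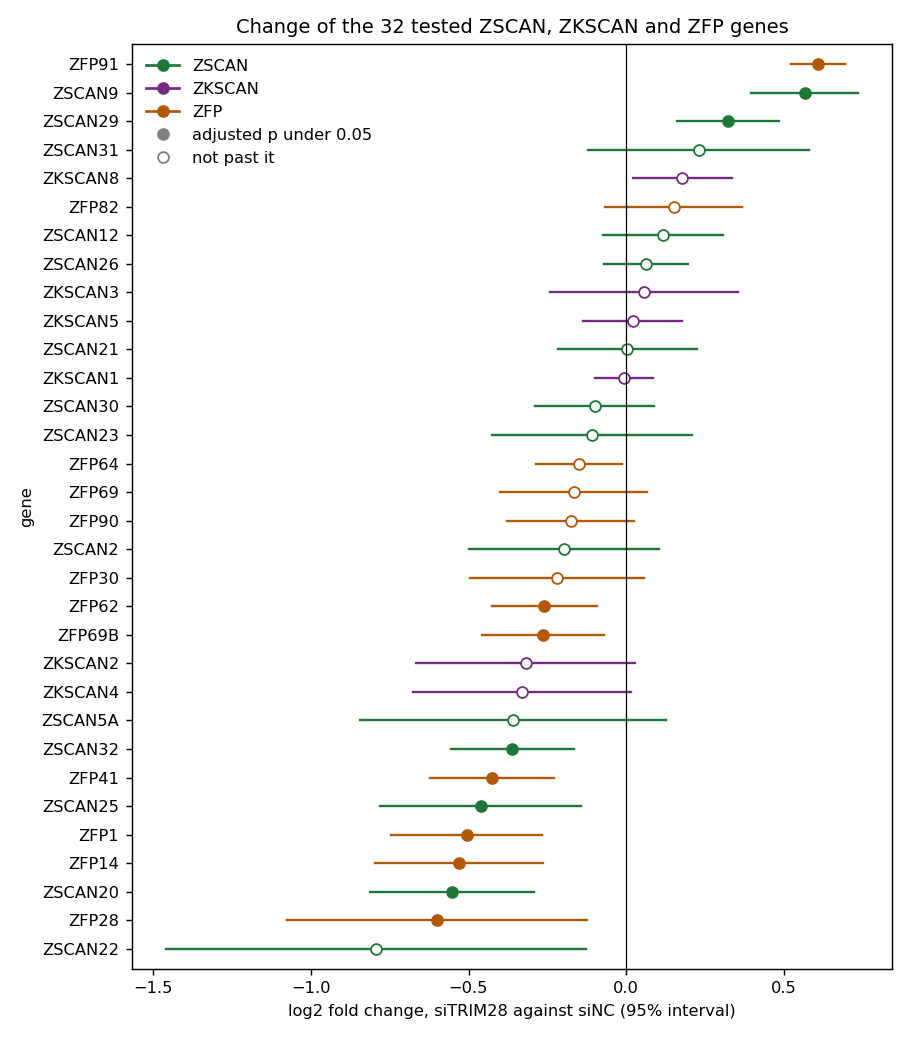
Log2 fold change of siTRIM28 against siNC (x axis) for the 32 genes tested, 1 gene per line (y axis), with 95% intervals from the edgeR fit. Color gives the name family, filled points passed an adjusted p under 0.05, and open points did not. ZFP91, ZSCAN9 and ZSCAN29 lie at the top, from 0.61 to 0.32, and the 9 filled points to the left of 0 lie between -0.60 and -0.26.

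ZFP91, an atypical E3 ubiquitin ligase known for its part in noncanonical NF-kB signaling, was the most abundant of the genes and rose the most. It was at 317, 315 and 327 CPM in siNC and at 476, 504 and 481 CPM in siTRIM28. All 3 siTRIM28 libraries were far above the 3 siNC libraries, which lay close together. The mean rose from 319.6 ± 6.62 to 487 ± 15.0 CPM (SD, n = 3 each), and the log2 fold change was 0.61 (SE 0.04, edgeR quasi-likelihood test with Benjamini-Hochberg adjustment, adjusted p = 3.42e-07). ZFP91 (ENSG00000186660) lies on the plus strand of chromosome 11 of GRCh38, from 58579063 to 58621550.

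ZFP91 made up 36.8% to 37.9% of the CPM summed over the 46 genes in siNC and 48.2% to 48.8% in siTRIM28. The sum rose from 857 ± 5.46 to 1005 ± 25.5 CPM (SD, n = 3 each) with ZFP91. Without ZFP91 it was 534 to 542 CPM in siNC and 509 to 530 CPM in siTRIM28, so the higher total of the 46 genes came from this single gene.

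The locus of ZFP91 is shared. The readthrough gene ZFP91-CNTF overlaps it on the same strand, and 31.6% of the 50-base words of ZFP91 transcripts also occur in another gene. ZFP91-CNTF had 3498, 3443 and 3320 counts in siNC and 5260, 4719 and 4474 in siTRIM28, which was 0.786 to 0.796 of the ZFP91 count in each library, and its log2 fold change was 0.60. An unnamed gene on the opposite strand (ENSG00000269570) had a log2 fold change of 0.76, with 2658 counts in siTRIM28 replicate 1 and 1628 and 1576 in the other 2. Whether a read that falls on more than 1 of these genes was counted for each is not given in the sources used here, so the 3 values cannot be told apart as separate transcripts.

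ZSCAN9, a SCAN domain protein with 5 fingers by the pattern, was at 13.3, 14.1 and 12.1 CPM in siNC and at 20.1, 19.5 and 18.8 CPM in siTRIM28. The 2 groups were well apart, and each was narrow. The mean rose from 13.2 ± 1.01 to 19.5 ± 0.653 CPM (SD, n = 3 each), with a log2 fold change of 0.57 (SE 0.08, adjusted p = 1.19e-04, edgeR as above). ZSCAN9 (ENSG00000137185) lies on the plus strand of chromosome 6, from 28224886 to 28233487, and shares no 50-base word with another gene.

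ZSCAN29, a SCAN domain protein with 6 fingers by the pattern, was at 21.7, 23.2 and 22.5 CPM in siNC and at 26.4, 30.7 and 27.4 CPM in siTRIM28. The groups did not overlap, and siTRIM28 replicate 2 was the highest library. The log2 fold change was 0.32 (SE 0.07, adjusted p = 0.00422, edgeR as above). ZSCAN29 (ENSG00000140265, chromosome 15, 43358172 to 43370907, minus strand) overlaps TUBGCP4, a component of the gamma-tubulin complex on the opposite strand, which fell by 0.32 on the log2 scale. The ratio of ZSCAN29 to TUBGCP4 counts was 1.28, 1.32 and 1.34 in siNC and 1.95, 2.15 and 2.05 in siTRIM28. The kit named in the labels is stranded, but whether the counting used strand is not given in the sources used here.

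The promoters of ZFP91 and ZSCAN9 are shown because these were the pair of genes with the largest rises. The windows hold 250 bases before and 50 bases after a RefSeq start site on GRCh38.p14, 5′ to 3′ on the strand of the gene. Capitals mark matches on either strand to the GC box (GGGCGG), the CCAAT box (CCAAT) and the ETS motif (CCGGAAG), each searched by itself, so that matches could share bases.
ZFP91, chr11:58578813-58579112, plus strand: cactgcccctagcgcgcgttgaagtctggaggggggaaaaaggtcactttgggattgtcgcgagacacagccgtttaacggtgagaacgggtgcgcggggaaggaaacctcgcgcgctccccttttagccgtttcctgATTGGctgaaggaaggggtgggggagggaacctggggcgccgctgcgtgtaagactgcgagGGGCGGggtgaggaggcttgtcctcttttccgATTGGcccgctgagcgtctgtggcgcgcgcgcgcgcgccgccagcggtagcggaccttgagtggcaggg
ZSCAN9, chr6:28224990-28225289, plus strand: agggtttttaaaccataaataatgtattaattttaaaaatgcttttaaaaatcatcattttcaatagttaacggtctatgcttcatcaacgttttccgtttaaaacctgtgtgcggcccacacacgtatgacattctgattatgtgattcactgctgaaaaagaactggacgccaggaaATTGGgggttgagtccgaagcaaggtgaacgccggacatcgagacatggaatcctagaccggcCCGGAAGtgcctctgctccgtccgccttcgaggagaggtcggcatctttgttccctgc
The ZFP91 window had 65.3% G and C with a GC box and CCAAT matches. The ZSCAN9 window had 44.7% G and C, with a CCAAT and an ETS match and no GC box. A second, overlapping RefSeq window of ZSCAN9 held the same 2 motifs.

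The genes that fell are described from the strongest test to the weakest. ZFP41, a small zinc finger gene on chromosome 8 with 4 fingers by the pattern, was at 16.6, 18.2 and 16.2 CPM in siNC and at 11.3, 13.6 and 13.3 CPM in siTRIM28. No siTRIM28 library reached the siNC libraries. The log2 fold change was -0.43 (SE 0.09, adjusted p = 0.00247, edgeR as above). An unnamed gene on the same strand (ENSG00000264668) overlaps ZFP41 and fell by 0.51 on the log2 scale, and 32.7% of the 50-base words of ZFP41 also occur elsewhere, so these 2 values may rest in part on the same reads.

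ZSCAN20, a SCAN domain gene with 10 fingers by the pattern (ENSG00000121903, chromosome 1, 33472645 to 33496507, plus strand), was at 10.1, 9.46 and 9.57 CPM in siNC and at 6.36, 5.91 and 7.60 CPM in siTRIM28. The siNC libraries were tightly grouped, and the siTRIM28 libraries were lower and more spread. The log2 fold change was -0.55 (SE 0.12, adjusted p = 0.00288, edgeR as above). No 50-base word of ZSCAN20 occurs in another gene.

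ZFP1, a KRAB zinc finger gene (ENSG00000184517, chromosome 16, 75148494 to 75170470, plus strand), was at 9.50, 9.17 and 8.78 CPM in siNC and at 6.50, 6.08 and 6.76 CPM in siTRIM28. Both groups were narrow and clearly apart, with a log2 fold change of -0.51 (SE 0.11, adjusted p = 0.0030, edgeR as above). ZFP14, a KRAB zinc finger gene (ENSG00000142065, chromosome 19, 36334453 to 36379201, minus strand), was at 8.64, 9.39 and 10.3 CPM in siNC and at 7.14, 6.50 and 5.91 CPM in siTRIM28. The groups did not overlap, and the log2 fold change was -0.53 (SE 0.12, adjusted p = 0.00435, edgeR as above).

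The promoters of ZSCAN20 and ZFP1 are shown beside those of the rising genes because both fell under every alternative setting and share no 50-base word with another gene. The windows and capitals are as above.
ZSCAN20, chr1:33472395-33472694, plus strand: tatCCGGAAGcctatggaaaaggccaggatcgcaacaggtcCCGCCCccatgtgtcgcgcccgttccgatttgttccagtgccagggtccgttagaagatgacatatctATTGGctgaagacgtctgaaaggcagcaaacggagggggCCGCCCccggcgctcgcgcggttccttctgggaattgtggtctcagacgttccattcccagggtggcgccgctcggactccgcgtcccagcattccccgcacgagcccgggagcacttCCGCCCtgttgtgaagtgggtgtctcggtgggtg
ZFP1, chr16:75148274-75148573, plus strand: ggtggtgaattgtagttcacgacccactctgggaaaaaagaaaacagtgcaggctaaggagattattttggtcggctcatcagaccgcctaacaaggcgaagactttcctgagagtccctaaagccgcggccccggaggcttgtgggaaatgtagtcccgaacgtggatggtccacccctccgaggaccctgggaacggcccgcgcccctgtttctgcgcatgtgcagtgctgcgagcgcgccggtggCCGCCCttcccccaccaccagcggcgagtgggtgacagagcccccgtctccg
The ZSCAN20 window had 62.3% G and C and held GC box, ETS and CCAAT matches. This ZFP1 window had 61.7% G and C and held a GC box, and the second RefSeq window of ZFP1 held the GC box as well.

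ZSCAN32 (ENSG00000140987, chromosome 16, 3382081 to 3401025, minus strand) was at 11.2, 11.6 and 11.1 CPM in siNC and at 8.86, 8.95 and 8.53 CPM in siTRIM28. These were the tightest groups among the genes that fell, and they were apart (log2 fold change -0.36, SE 0.09, adjusted p = 0.0066, edgeR as above). ZFP62 (ENSG00000196670, chromosome 5, 180847611 to 180861276, minus strand), the gene with the most fingers, was at 32.3, 35.1 and 33.6 CPM in siNC and at 30.9, 27.5 and 25.8 CPM in siTRIM28. The groups came close to each other without overlap, and the log2 fold change was -0.26 (SE 0.08, adjusted p = 0.0163, edgeR as above).

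ZSCAN25, ZFP69B and ZFP28 passed with less margin. ZSCAN25 (ENSG00000197037, chromosome 7, 99616946 to 99630908, plus strand) was at 7.27, 6.28 and 8.39 CPM in siNC and at 5.64, 5.41 and 4.81 CPM in siTRIM28 (log2 fold change -0.46, SE 0.15, adjusted p = 0.0239, edgeR as above). ZFP69B, a KRAB zinc finger gene (ENSG00000187801, chromosome 1, 40450102 to 40463715, plus strand), was at 13.2, 13.4 and 15.5 CPM in siNC and at 11.9, 12.1 and 11.1 CPM in siTRIM28 (log2 fold change -0.26, SE 0.09, adjusted p = 0.0323, edgeR as above). In neither gene did the groups overlap. ZFP28, a KRAB zinc finger gene (ENSG00000196867, chromosome 19, 56538948 to 56556808, plus strand), was at 2.95, 2.17 and 2.74 CPM in siNC and at 1.86, 1.86 and 1.44 CPM in siTRIM28. It was the lowest in abundance of the genes that fell, its groups did not overlap, and its log2 fold change was -0.60 (SE 0.22, adjusted p = 0.0436, edgeR as above). ZFP28 missed the threshold under 11 of 16 alternative settings, ZSCAN25 under 7 and ZFP69B under 6, while all 3 stayed below 0.

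**Figure D2:**
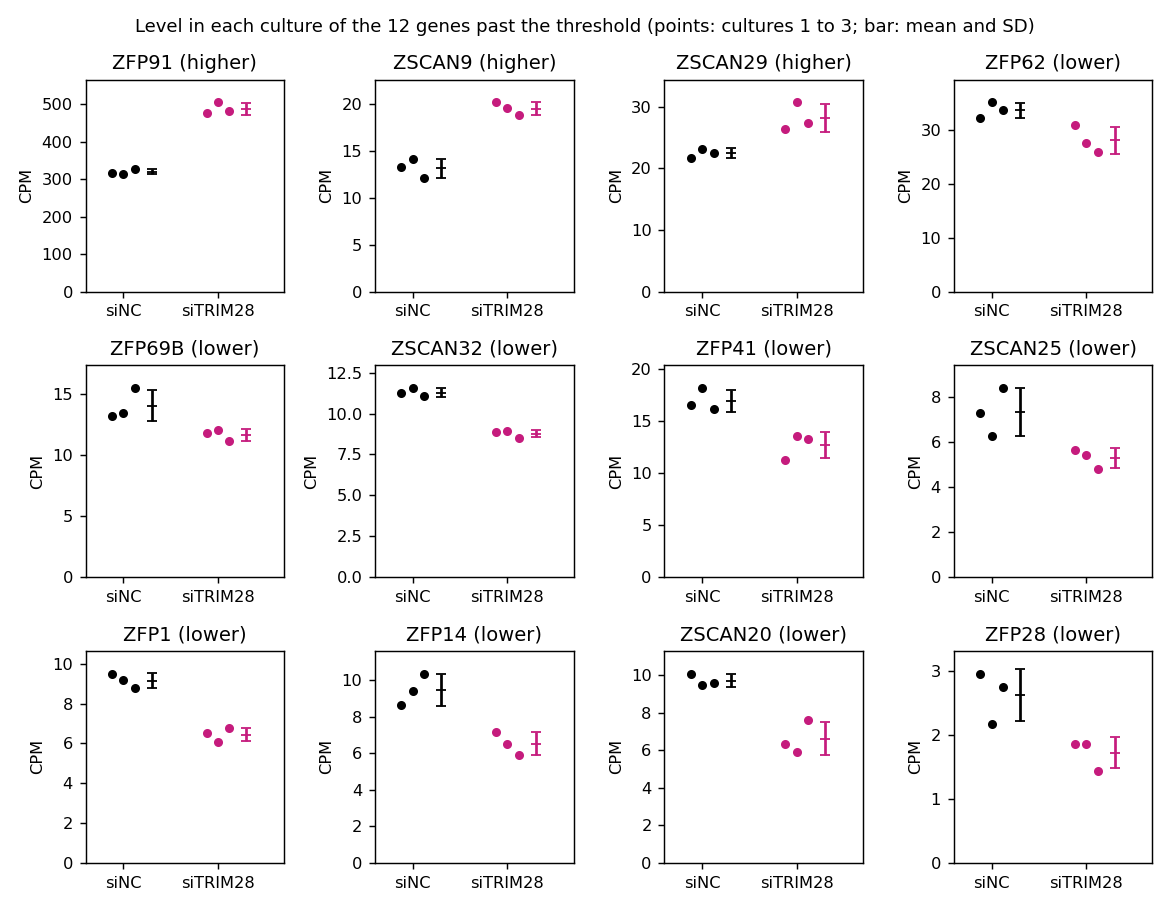
TMM-scaled CPM (y axis, from 0, with its own scale in each panel) in siNC and siTRIM28 (x axis) for the 12 genes past an adjusted p under 0.05. Points are the 3 libraries of each group, and the bar beside them is the mean with its SD. In every panel the 2 groups are apart, most clearly for ZFP91 at 317, 315 and 327 against 476, 504 and 481 CPM.

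Among the 20 genes that did not pass the test, log2 fold changes lay between -0.79 and 0.23, with 8 above 0, 12 below and a median of -0.10. ZSCAN22 had the most negative value. It was at 2.81, 2.46 and 1.88 CPM in siNC and at 1.79, 0.676 and 1.60 CPM in siTRIM28. The groups were apart but the level was low, and the log2 fold change was -0.79 (SE 0.30, adjusted p = 0.0548, edgeR as above). It was -0.49 without siTRIM28 replicate 2 and -1.06 without siTRIM28 replicate 1. ZKSCAN8 was at 23.5, 22.0 and 23.4 CPM in siNC and at 24.2, 26.1 and 27.8 CPM in siTRIM28, with a value of 0.18 on the log2 scale (adjusted p = 0.0663, edgeR as above).

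ZFP64, known as a regulator of the KMT2A promoter in leukemia, was at 22.0, 22.1 and 22.4 CPM in siNC and at 19.5, 20.4 and 20.1 CPM in siTRIM28. All siTRIM28 libraries were below siNC, by a log2 fold change of -0.15 with a 95% interval from -0.29 to -0.01, and the adjusted p of 0.0764 (edgeR as above) missed the threshold. The genes ZSCAN5A, ZKSCAN4, ZKSCAN2, ZFP30, ZSCAN2, ZFP90, ZFP69, ZSCAN23 and ZSCAN30 had log2 fold changes from -0.36 to -0.10 with overlapping groups. ZSCAN26, ZSCAN12, ZFP82, ZSCAN31, ZKSCAN3, ZKSCAN5 and ZSCAN21 had values from 0.00 to 0.23, also with overlap.

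ZKSCAN1, known for the abundant circular RNA made from its transcript, was the second most abundant gene per length. It was at 139.7, 144 and 140.1 CPM in siNC and at 141, 144 and 137 CPM in siTRIM28. The libraries of both groups covered the same range, and the log2 fold change was -0.01 with a 95% interval from -0.10 to 0.09. ZKSCAN3, a repressor of autophagy and lysosome genes, was at 7.13, 6.21 and 5.72 CPM in siNC and at 7.28, 6.17 and 6.33 CPM in siTRIM28. Its log2 fold change of 0.06 had an interval from -0.24 to 0.35, which leaves room for a change of the size seen in ZSCAN29. ZKSCAN3 overlaps ZSCAN31 on the opposite strand and shares 7.51% of its 50-base words, most often with ZKSCAN4.

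The 14 genes below the filter had 0 to 3 counts in any library. ZFP57, which keeps imprinted regions methylated in early embryos, ZFP42 (REX1), a marker of pluripotent cells, and ZSCAN4, a gene of early embryos and of telomere maintenance in embryonic stem cells, had 0 counts in all 6 libraries. ZSCAN10, a factor of the pluripotency network, had 2 counts in siNC replicate 2, 2 counts in siTRIM28 replicate 1 and none in the other 4. ZKSCAN7, ZFP2, ZSCAN16, ZFP37, ZFP3, ZSCAN1, ZSCAN5B, ZSCAN5C, ZSCAN18 and ZFP92 made up the rest. At this depth a difference in any of the 14 was not detectable. In bulk RNA a transcript present in fewer cells and one present at a lower level per cell cannot be told apart.

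By level per length (CPM per kilobase of the gene length in the table), ZFP91 at 55.3 stood at the percentile 95.3 of all genes tested. ZKSCAN1 followed at 13.7 and ZSCAN26 at 13.0. ZSCAN26 was at 39.5, 35.8 and 37.3 CPM in siNC and at 39.5, 39.6 and 38.5 CPM in siTRIM28, so its groups overlapped, with a log2 fold change of 0.06. The median over the 32 genes was 2.12 CPM per kilobase in siNC, beside 2.72 for all genes tested.

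The calls were also counted by abundance, as a description without a test of the difference between the classes. The cut at 200 counts was not among the groupings planned beforehand. It falls between ZFP41 (mean of 194 counts, lower) and ZSCAN9 (212 counts, higher), so the numbers in each class depend on it. Of the 11 with a mean of at least 200 counts, 3 were higher and 1 (ZFP62) was lower. Of the 21 with fewer counts, 0 were higher and 8 were lower by the edgeR test, and 0 were higher at an unadjusted p under 0.05 or with DESeq2. Of these 8, ZFP28, ZSCAN25, ZFP69B and ZSCAN32 no longer passed with DESeq2. Among all genes tested, 26% of those with at least 200 counts were higher and 30.6% were lower, and of those with fewer counts 18% were higher and 13.2% were lower. Standard errors of the log2 fold change were 0.04 to 0.09 in the more abundant genes and 0.09 to 0.30 in the others.

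**Figure D3:**
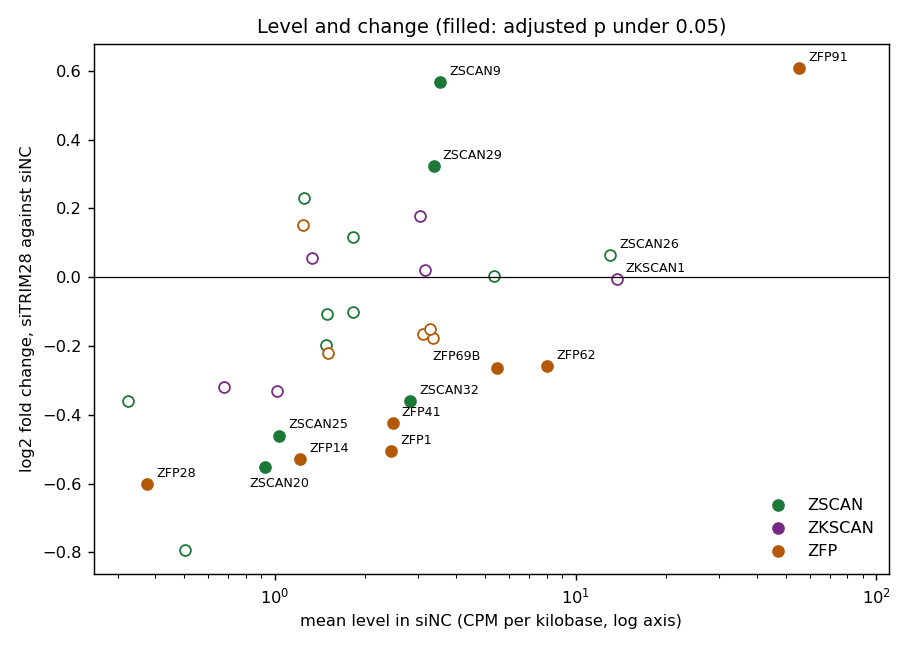
Mean level in siNC in CPM per kilobase (x axis, log scale) against the log2 fold change of siTRIM28 against siNC (y axis) for the 32 genes tested, colored by name family. Filled points passed an adjusted p under 0.05. ZFP91 stands alone at 55.3 CPM per kilobase and 0.61, and ZKSCAN1 and ZSCAN26 at 13.7 and 13.0 lie near 0. Of the 9 genes called lower in the edgeR fit, 8 had a mean under 200 counts, as did 21 of the 32 tested.

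By name, the ZSCAN genes gave 2 higher and 3 lower of 14 tested, with a median log2 fold change of -0.10. None of the 6 ZKSCAN genes tested passed in either direction in the edgeR fit (median 0.01), and none passed with DESeq2, although ZKSCAN8 was higher at an unadjusted p under 0.05 and passed under upper-quartile scaling, total-count scaling and without siTRIM28 replicate 1. The ZFP genes gave 1 higher and 6 lower of 12 tested (median -0.24). Over all genes tested 21.3% were higher and 20.5% lower, and the differences between the name families were not tested. Of the 8 tested ZFP genes with a KRAB A box, 4 were lower in the edgeR fit (ZFP1, ZFP14, ZFP28 and ZFP69B), with a median of -0.24. ZFP1 and ZFP14 also passed with DESeq2 and with the close pairs summed, whereas ZFP28 and ZFP69B passed with neither. None of the 8 was higher by the edgeR fit, by DESeq2 or at an unadjusted p under 0.05, and ZFP82, at 0.15, had the single value above 0. Of the 4 without the box, ZFP91 was higher, ZFP41 and ZFP62 were lower and ZFP64 did not pass.

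Many of the genes are neighbors. When genes less than 1000000 bases from the next were joined, 27 of the 46 fell into 7 clusters. The largest holds 9 genes between 28107689 and 28443502 on chromosome 6, within the extended major histocompatibility region. Of its 8 tested genes, ZSCAN9 was higher in the edgeR fit, and 0 were lower by that fit, by DESeq2 or at an unadjusted p under 0.05. In this cluster 6 values were above 0, and the median was 0.09. In the cluster on chromosome 7 (ZKSCAN5, ZSCAN25, ZKSCAN1 and ZSCAN21), ZSCAN25 was lower and the other 3 had log2 fold changes of -0.01 to 0.02. All 4 tested genes on chromosome 16 had values below 0, and ZFP1 and ZSCAN32 passed. On chromosome 19, which also holds TRIM28, ZFP14 and ZFP28, the latter of which missed the threshold under 11 of 16 alternatives, were lower among 6 tested, with 5 values below 0. Over all genes tested, 21.3% were higher and 20.5% lower, 41.8% in either direction, and differences between clusters were not tested.

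Adjacent genes did not always receive the same call. ZFP14 and ZFP82 lie side by side on the minus strand of chromosome 19. Their count ratio, ZFP14 over ZFP82, was 0.723, 0.793 and 0.978 in siNC and 0.633, 0.490 and 0.427 in siTRIM28. Every siTRIM28 library was below the siNC libraries in this ratio. An exact permutation test of the mean log2 ratios gave p = 0.1. This is the smallest value possible for 3 against 3, so the test cannot decide whether the genes differ. ZFP82 itself did not pass the edgeR test. ZFP69B and ZFP69 on chromosome 1 had a ratio of 1.35, 1.50 and 1.42 in siNC and 1.41, 1.34 and 1.25 in siTRIM28. Here the groups overlapped, so the call of ZFP69B and the lack of one in ZFP69 (log2 fold change -0.17) are not shown to differ.

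RefSeq promoter windows were matched to 38 of the 46 genes by symbol, 56 windows in all. Among the 43 windows of tested genes, the ETS motif occurred in 37.2%, beside 16.9% of the 15882 windows of all genes tested. The GC box occurred in 55.8% beside 65.4%, CCAAT in 37.2% beside 35.0%, the YY1 motif (AAGATGG) in 4.65% beside 6.87%, the TATA box (TATAAA) in 0% beside 6.32%, and the interferon response motif in 4.65% beside 2.89%. A window with the ETS motif was present for 2 of the 3 genes called higher, for 4 of the 6 called lower that have a window, and for 9 of the 18 not called. A match of letters is no evidence of binding, and several windows can belong to 1 gene.

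Other genes with a SCAN domain gave 2 higher (8.7%) and 5 lower (21.7%) of 23 tested (median -0.12). Over all genes tested 21.3% were higher and 20.5% lower. ZNF274, which binds zinc finger genes and brings SETDB1 to them, rose by a log2 fold change of 0.39, and ZNF24 rose by 0.31. ZNF496 fell by 0.66, ZNF202 by 0.56, ZNF397 by 0.36, ZNF445, a factor of imprint maintenance, by 0.29 and ZNF197 by 0.28 on the log2 scale. Of 444 tested genes named ZNF with a number, 61 (13.7%) were higher and 93 (20.9%) lower, with a median of -0.08. Several of the SCAN genes are also among the numbered ZNF genes.

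Among 17 genes of the TRIM28 corepressor machinery, 3 (17.6%) were higher and 5 (29.4%) lower (median 0.01), beside 21.3% and 20.5% of all genes tested. ATRX, a chromatin remodeler that deposits histone H3.3 with DAXX, rose from 289 ± 4.25 to 424 ± 13.5 CPM, and TRIM24, a relative of TRIM28, rose from 25.9 ± 0.729 to 34.6 ± 3.34 CPM (SD, n = 3 each). Their log2 fold changes were 0.56 and 0.42. HDAC1 rose by 0.12, whereas MORC2 fell by 0.35, CHD3 by 0.28, TASOR by 0.18, HDAC2 by 0.16 and CBX1 by 0.14 on the log2 scale. SETDB1, the histone methyltransferase of the complex, had a log2 fold change of 0.07 and did not pass.

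The study lists 2 siRNAs against TRIM28, and the heptamer that pairs with bases 2 to 8 of the siTRIM28-2 guide was looked for in 3′ UTRs. No such search was made for the other siRNA. The siTRIM28-2 heptamer was chosen because earlier results of these data gave lower values for genes with it. The shares over all genes given below are therefore not a separate test of it. Of the tested genes with this heptamer (ZSCAN2, ZFP14, ZSCAN22 and ZSCAN12), ZFP14 was lower in the edgeR fit and 0 were higher by that fit, by DESeq2 or at an unadjusted p under 0.05. These 4 genes had a median log2 fold change of -0.36. The 28 genes without it gave 3 higher and 8 lower, with a median of -0.16. Among all genes tested, 41.4% of 2404 with the heptamer were lower, beside 22.7% of 9955 with a 3′ UTR without it. Of the same 2 sets, 15.6% and 23.1% were higher. The part of the heptamer in these results was not tested.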

How the data were processed

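RNA was isolated with TRIzol, poly(A) RNA was captured, and libraries were made with a stranded kit, per the labels. According to the submitters' processing notes, fastp 0.23.1, STAR 2.7.6a, featureCounts and GRCh38 were used, and strand and multiple-overlap settings are not given in the sources used here. The authors deposited raw read counts per gene, with no normalization, and these were the values tested. A second file with the authors' selection of differentially expressed genes was not used.

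Genes that reached 10 counts in 3 or more of the 6 libraries were tested with edgeR 4.0.16 (R 4.3.3, TMM, quasi-likelihood, condition only), with Benjamini-Hochberg adjustment over all 18474 genes and a threshold of 0.05. CPM are scaled by TMM. The study's methods name no test for these libraries. P-values measure only the spread between these libraries of 1 line. That spread may be less than between independent cultures, since the close pairs differ by little more than counting error. The genes and lists were chosen with earlier results of these data known. Values in every library were given for TRIM28, for genes past the threshold, and for genes set by role or by level per length. ZSCAN22 and ZKSCAN8 were added after their values were seen. KRAB boxes, fingers, 3′ UTRs and shared words of 50 bases were read from GENCODE v29 transcripts, and promoters from RefSeq.

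On simulated counts with changes of 0.8 on the log2 scale, 121 of 126 changed genes with a mean of at least 50 counts and 15 of 66 with fewer were recovered among 18185 genes, with 10 false calls. Every change called among the ZSCAN, ZKSCAN and ZFP genes was smaller, at most 0.61 in size. Recovery at such sizes was not simulated. The alternatives were 3 other scalings, DESeq2 1.42.0, limma-voom (limma 3.58.1), 2 other filters, a replicate block, each library left out, the close pairs summed and an adjusted p under 0.01. Same-numbered libraries did not deviate together (r = 0.05, -0.01 and 0.04), so the numbers were not treated as pairs.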

Additional observations from a re-analysis of the deposited data

How the results depend on the processing

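No gene with a call changed direction under any of the 16 alternatives. The 9 genes called lower became 5 with DESeq2, 5 with the close pairs summed and 5 at an adjusted p under 0.01, and 7 to 10 when 1 library was left out. The 3 called higher stayed at 3 or 4. The median log2 fold change of the genes tested moved from -0.17 to -0.12 without siTRIM28 replicate 1, and lay between -0.20 and -0.12 when 1 library was left out. Calls over all genes numbered 7723, fell to 5878, 5935 and 5393 under the first 3 of these alternatives, and were 6367 to 8252 when 1 library was left out. With the replicate number as a block, 7910 genes were called over all and 3 members were higher and 9 lower. In that block fit ZFP28 was lost (adjusted p = 0.053) and ZSCAN22 was gained (adjusted p = 0.0378), with no other change among the genes. ZFP91, ZSCAN9, ZSCAN29, ZSCAN20, ZFP14, ZFP1 and ZFP41 passed under all 16 alternatives, ZSCAN32 under all but DESeq2, and ZFP62 under all but 3 (without siNC replicate 2, with close pairs summed, and at an adjusted p under 0.01). ZSCAN22 passed in 5 of 15 settings, ZKSCAN8 in 3 of 16 and ZFP90 in 1, without siTRIM28 replicate 3. The sign of ZSCAN21, ZKSCAN1, ZKSCAN5 and ZKSCAN3, none of which passed, changed in 8, 3, 3 and 2 settings. The causes of these moves were not tested. The simulated recovery was low for genes with a mean under 50 counts, which among the genes tested here are ZSCAN22, ZFP28 and ZSCAN5A.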
